A study of Mus musculus with 7 samples.

Results

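The oxysterol-binding protein family was followed in T-cells in which one of its genes, Osbp2, had been knocked in. The 10 members were Osbp2 together with Osbp, Osbpl1a, Osbpl2, Osbpl3, Osbpl5, Osbpl7, Osbpl8, Osbpl9 and Osbpl11, chosen by name, and all 10 were found among the 25033 genes listed. Another 2 family genes, Osbpl6 and Osbpl10, had too few counts to be tested with the rest. The question was whether the other family genes followed Osbp2 upward, fell as if to offset it, or did neither.

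Oxysterol-binding proteins and their relatives (OSBP-related proteins, ORPs) carry sterols and phosphoinositides between membranes, and most work where the endoplasmic reticulum touches another organelle. They share a carboxy-terminal lipid-binding domain that takes up phosphatidylinositol 4-phosphate and, in many members, cholesterol, oxysterols or phosphatidylserine. ORP4L is the long product of Osbp2. In healthy tissue it is found mainly in brain, testis and retina, and it has been described in leukaemic T-cells, where it acts as a scaffold for phospholipase C signalling.

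RNA sequencing covered 7 libraries of primary T-cells from C57BL/6J mice aged 15 months, 3 of the WT genotype and 4 of the ORP4L knock-in genotype (ORP4L KI). ORP4L KI mice carried the human ORP4L coding sequence with a 3xFlag tag and an IRES-EGFP-WPRE cassette behind a CAG promoter and a loxP-flanked stop in the Rosa26 locus, with Cre driven by the Lck promoter, and WT mice were littermates. Whether the WT mice carried Cre and whether each library came from blood or spleen is not given in the sources used here. The ORP4L KI mice were moribund when sampled, so genotype and illness cannot be told apart. Each library came from a separate mouse. Its methods describe T-cells purified with a kit meant to leave naive CD4+ cells, followed by culture with IL-2 and PHA, but do not say whether the sequenced cells had been cultured.

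Each library held 12918187 to 19665679 read counts assigned to genes. Levels are given as CPM, a count scaled to 1000000 counts per library with factors from the trimmed mean of M-values. The T-cell label was checked against 10 T-cell markers, all of which were detected, with a summed level of 2150 to 3050 CPM in WT and 1450 to 4030 CPM in ORP4L KI. The 14 granulocyte markers summed to 1690 to 4900 CPM in WT and 10300 to 146000 CPM in ORP4L KI, and 14 of 14 were higher in ORP4L KI at an unadjusted edgeR p under 0.01 with a log2 fold change above 1. The 11 erythroid markers found summed to 9810 to 18500 CPM in WT and 1090 to 8570 CPM in ORP4L KI. By gene, 6 of these 11 had higher estimates and 5 lower, with a median log2 fold change of 0.09. The 7 dendritic markers summed to 487 to 748 CPM in WT and 142 to 263 CPM in ORP4L KI. Of the 7 NK markers, 5 were lower within the same limits of p and fold size, which 4.68% of all genes tested met. Another 1 was higher, without overlap of the groups (log2 fold change 1.59, unadjusted edgeR p under 0.05). The NK sum was 448 to 582 CPM in WT and 200 to 745 CPM in ORP4L KI. The cell purification named above is meant to remove these cells, and their part in the values given here was not tested.

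The family is recognised by a short signature in the lipid-binding domain, and the bases that encode it are shown here to let the members be compared where they are most alike. Each window is 24 bases of mouse coding sequence (GENCODE vM21, GRCm38, coding strand, read 5′ to 3′), and capitals mark bases that differ from Osbp2. Osbpl6 and Osbpl10 are included, and Osbpl1a is named only.
Osbp2: gagcaggtgagccaccaccccccg
Osbp: gagcaggtgagTcaTcaTcccccT
Osbpl2: gagcaggtCagTcaccacccTccT
Osbpl3: gagcaggtCagccaccacccAccT
Osbpl5: gaAcaggtgTCTcaccaTccTccT
Osbpl6: gaAcaAgtTagccaTcaTccAccC
Osbpl7: gagcaggtCTCccaccaTccTccg
Osbpl8: gaAcaggtgTCccaTcacccAccA
Osbpl9: gagcaAgtTTCccaccaTccGccC
Osbpl10: gagcaggtATCccaTcaTccGccC
Osbpl11: gagcaggtTTCccaTcaTccTccA

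All of these windows encode the same residues, and they differ from Osbp2 at 3 bases in Osbpl3, 4 in Osbp and Osbpl2, and up to 7 in the rest. Over the whole coding sequence, Osbp was the closest relative of Osbp2, with 67.3% identical bases over 2377 aligned bases, against 53.9 to 60.1% for the other 10 family genes. The longest run of identical bases shared by Osbp2 and Osbp was 18 bases, ctggccaaggccaaggct, at positions 802 to 819 of the Osbp2 coding sequence and 526 to 543 of that of Osbp. In the other 10 genes the longest run shared with Osbp2 was 11 to 29 bases. These are comparisons of mouse sequences, and the human sequence that was knocked in was not compared here.

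Osbp2 was the one member called as different between the groups. The gene lies on the minus strand of chromosome 11 (chr11:3703731-3863999, GRCm38). Osbp2 had 0, 0 and 1 read counts in WT replicates 1 to 3 and 188, 742, 155 and 443 counts in ORP4L KI replicates 1 to 4. In CPM these were 0, 0 and 0.0702 in WT and 11.4, 40.6, 8.9 and 27.6 in ORP4L KI. The groups did not overlap, and within ORP4L KI the highest library, replicate 2, stood 4.57-fold above the lowest, replicate 3. A floor of 3 counts, the limit that a count of 0 allows, was set in each WT library. The ORP4L KI mean of 22.1 ± 14.8 CPM (SD, n = 4) was 105-fold above the highest floor, and the lowest ORP4L KI library 42.2-fold above it. That floor, 0.211 CPM, was that of WT replicate 3, which had 1 count, so these folds are no strict bound for that library.

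In edgeR's quasi-likelihood test over 13462 genes, Osbp2 ranked first of all (adjusted p = 0.0471). It was 1 of 3 genes, or 0.0223% of those tested, with an adjusted p under 0.05. The fitted log2 fold change of 9.56 (SE 1.00) depends on the prior count that the fit adds and is no bound. Osbp2 passed the filter on low counts only through the ORP4L KI libraries. The call at an adjusted p under 0.05 was lost when WT replicate 1 (adjusted p = 0.165), WT replicate 2 (0.202), WT replicate 3 (0.0991) or ORP4L KI replicate 4 (0.193) was left out of the edgeR fit. In an exact two-sided permutation test over the 35 ways to split the libraries, p was 0.0286, the smallest that this design allows.

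Because reads were mapped to mouse mRNA and the knock-in sequence is human, the Osbp2 values count the reads that aligned to the mouse gene, and the share of transgene reads that did so is not known. The same pattern was then looked for in all other genes. Osbp2 was the only gene with at most 3 counts in every WT library and at least 30 in every ORP4L KI library. With the groups exchanged, 0 genes met the rule. The rule was modelled on Osbp2, which meets it for that reason. Rtkn, with 8, 4 and 4 counts in WT and 40, 64, 41 and 34 in ORP4L KI, met the ORP4L KI limit but not the WT limit.

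**Figure D1:**
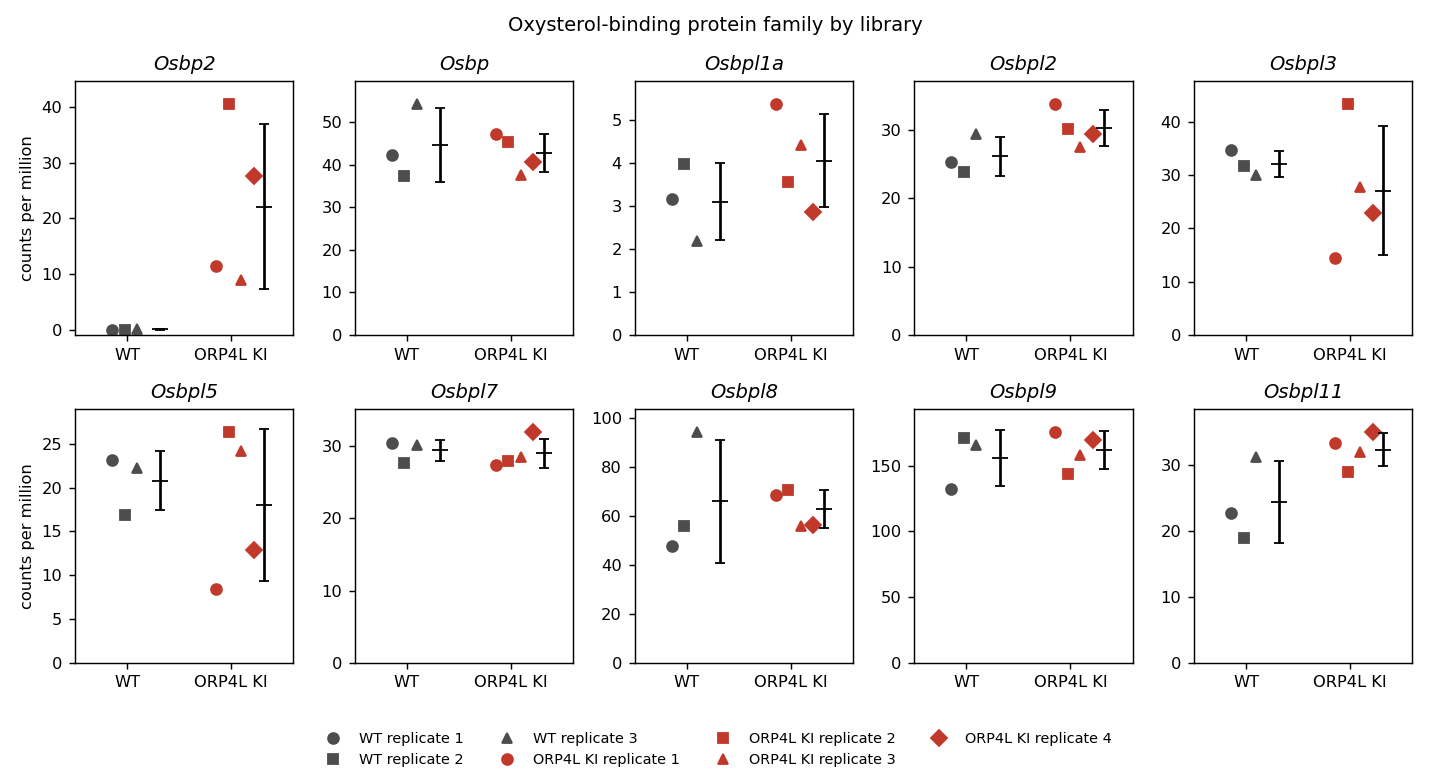
Level of each of the 10 family members in CPM (vertical axis, one panel per gene, starting at or just below 0) in the 3 WT libraries (grey) and the 4 ORP4L KI libraries (red), with the group mean and SD in black. Osbp2 sits at or near 0 in WT and between 8.9 and 40.6 in ORP4L KI, whereas the groups overlap in the other 9 panels.

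None of the other 9 members was called. With edgeR, 0 of 9 had an adjusted p under 0.05, 0 of 9 an unadjusted p under 0.05 (13.7% of all genes tested), and 0 of 9 met the looser rule of an unadjusted p under 0.01 with a log2 fold change above 1 in size, which 630 genes or 4.68% of all genes tested met. DESeq2, which called 784 of all genes (5.82%) at an adjusted p under 0.05 and 15.7% at an unadjusted p under 0.05, also gave 0 of 9 by either rule. The groups did not overlap in 0 of 9 members, against 13.8% of all genes tested. The estimate was higher in ORP4L KI for 4 members and lower for 5, with a median log2 fold change of -0.02, against 0.01 over all genes. The 95% interval stayed within a 2-fold change either way in 7 of the 9, the exceptions being Osbpl1a and Osbpl5.

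Osbp (chr19:11965844-11994114, plus strand), the founding member and the closest relative of Osbp2, exchanges cholesterol for phosphatidylinositol 4-phosphate between endoplasmic reticulum and Golgi, and its product can pair with ORP4. Osbp stood at 42.2, 37.4 and 54.2 CPM in WT and 47.3, 45.2, 37.5 and 40.7 CPM in ORP4L KI. All 4 ORP4L KI libraries lay inside the WT range. The log2 fold change was -0.06 (SE 0.20, 95% interval -0.50 to 0.38, edgeR adjusted p = 0.932). The ratio of both genes followed Osbp2. Per length, in the authors' RPKM, which divides reads by the length of the longest transcript and by library size, Osbp2 stood at 2.33, 10.8, 2.16 and 6.19 and Osbp at 8.6, 10.7, 8.14 and 8.16 in ORP4L KI replicates 1 to 4. Osbp2 thus reached 0.271, 1.01, 0.266 and 0.758 of the level of Osbp, as against 0, 0 and 0.00145 in WT. The Osbp2 length used, 4097 bases, is that of the mouse mRNA, whereas its longest coding sequence has 2724 bases. These RPKM values of a knocked-in coding sequence are thus not levels per its own length. The share of transgene reads they count is also not known.

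The pair formed by Osbpl1a and Osbpl2 encodes ORP1, whose long form sits on late endosomes, and ORP2, which moves cholesterol to the plasma membrane. Osbpl1a had 3.17, 3.96 and 2.18 CPM in WT and 5.36, 3.56, 4.42 and 2.86 CPM in ORP4L KI. Osbpl2 (chr2:180116318-180162682) had 25.4, 23.9 and 29.4 CPM in WT and 33.8, 30.2, 27.6 and 29.5 CPM in ORP4L KI. In both genes the highest library was ORP4L KI replicate 1, and in both the groups overlapped. The log2 fold change was 0.38 for Osbpl1a (SE 0.34, 95% interval -0.39 to 1.15, edgeR adjusted p = 0.718) and 0.21 for Osbpl2 (SE 0.18, -0.20 to 0.61, 0.706). Osbpl1a was the least counted of the 9, with 31 to 88 counts per library.

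Osbpl3 and Osbpl7 belong to another subgroup. ORP3 has been tied to R-Ras and cell adhesion. Osbpl3 (chr6:50293327-50456354) had 34.7, 31.7 and 30 CPM in WT and 14.5, 43.3, 27.8 and 22.8 CPM in ORP4L KI, so that the ORP4L KI libraries lay on both sides of WT. Osbpl7 (chr11:97050633-97068904) had 30.4, 27.7 and 30.1 CPM in WT and 27.4, 28.0, 28.5 and 32 CPM in ORP4L KI, in which the highest and lowest ORP4L KI libraries differed by 1.17-fold. The log2 fold change was -0.24 for Osbpl3 (SE 0.32, 95% interval -0.97 to 0.48, edgeR adjusted p = 0.828) and -0.02 for Osbpl7 (SE 0.17, -0.40 to 0.36, 0.977).

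Osbpl5 and Osbpl8 encode ORP5 and ORP8, which are anchored in the endoplasmic reticulum and hand phosphatidylserine to the plasma membrane in exchange for phosphatidylinositol 4-phosphate. Osbpl5 (chr7:143688762-143757008) had 23.2, 16.9 and 22.3 CPM in WT and 8.46, 26.4, 24.2 and 12.9 CPM in ORP4L KI. Osbpl8 (chr10:111164742-111297249) had 47.6, 55.7 and 94.3 CPM in WT and 68.5, 70.7, 55.7 and 56.3 CPM in ORP4L KI. Osbpl5 again ran from below to above WT, whereas Osbpl8 was widest in WT because of replicate 3. The log2 fold change was -0.21 for Osbpl5 (SE 0.37, 95% interval -1.05 to 0.63, edgeR adjusted p = 0.879) and -0.07 for Osbpl8 (SE 0.26, -0.64 to 0.50, 0.947). The sign for Osbpl8 turned to 0.28 without WT replicate 3, and that for Osbpl5 to 0.02 without ORP4L KI replicate 1.

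Osbpl9 and Osbpl11 encode ORP9 and ORP11, which can pair with each other at the Golgi. Osbpl9 (chr4:109061145-109202272) had 132, 171 and 166 CPM in WT and 176, 144, 158 and 170 CPM in ORP4L KI. Its log2 fold change was 0.05 (SE 0.18, 95% interval -0.36 to 0.47, edgeR adjusted p = 0.943). Osbpl11 (chr16:33169763-33243312) had 22.7, 18.9 and 31.1 CPM in WT and 33.3, 28.9, 32 and 35 CPM in ORP4L KI. It had the largest estimate among the 9, 0.41 (SE 0.21, 95% interval -0.07 to 0.89, edgeR adjusted p = 0.454). All 4 ORP4L KI libraries exceeded the WT mean, but WT replicate 3 lay above ORP4L KI replicate 2. Without WT replicate 3 the log2 fold change of Osbpl11 was 0.63 (edgeR adjusted p = 0.24), with an unadjusted p under 0.05.

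**Figure D2:**
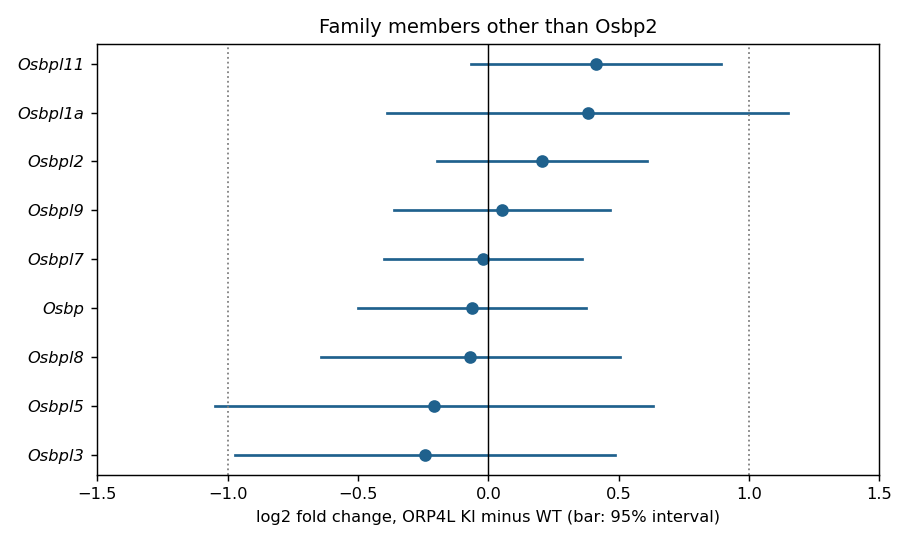
Log2 fold change, ORP4L KI minus WT (horizontal axis), of the 9 family members other than Osbp2, with bars for the 95% interval from edgeR and dotted lines at a 2-fold change. Every bar crosses 0, and the bars of Osbpl1a and Osbpl5 alone reach past a dotted line.

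Whether other members tracked Osbp2 among the ORP4L KI libraries was described by rank, since 4 libraries are too few for a correlation. Osbp2 ran from high to low in replicates 2, 4, 1 and 3. None of the 9 other members had that order. In replicate 2, where Osbp2 was highest, 3 of 9 other members were at their highest and 2 at their lowest, and 5 of 9 were higher there than in replicate 3, where Osbp2 was lowest. The summed level of the 9 was 361.2, 386.7 and 459.8 CPM in WT and 415.0, 420.1, 396.2 and 401.7 CPM in ORP4L KI, so that every ORP4L KI sum fell within the WT range.

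Osbpl3 and Osbpl5 stood out by their spread in ORP4L KI and not by their means. The coefficient of variation of Osbpl3 was 44.7% over the ORP4L KI libraries and 7.45% in WT, and that of Osbpl5 was 48.2% and 16.3%. Both genes ran from high to low in ORP4L KI replicates 2, 3, 4 and 1, with a 2.99-fold range for Osbpl3 and a 3.12-fold range for Osbpl5. For the remaining members apart from Osbp2 and Osbpl1a the ORP4L KI range was 1.17- to 1.27-fold, and it was 1.87-fold for Osbpl1a.

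The same libraries differed in their cell-type markers. The granulocyte markers summed to 10300, 30700, 53300 and 146000 CPM in ORP4L KI replicates 2, 3, 4 and 1, which is the order of Osbpl3 and Osbpl5 turned round. Osbpl9 followed the order of these markers, from 144 CPM in replicate 2 to 176 CPM in replicate 1. Such orders of so few libraries are a description only, and in WT Osbpl3 rose with the granulocyte sum. The T-cell markers summed to 4030 CPM in replicate 2 and 1450 CPM in replicate 1, with 2840 CPM in replicate 3 and 3220 CPM in replicate 4. Osbp2 was also highest in replicate 2. In bulk RNA, fewer cells of a type and less RNA per cell cannot be told apart.

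Expressed per 1000 CPM of summed T-cell markers, a scale chosen after the data were seen, the members split. Osbpl3 then stood at 12.6, 14.7 and 9.82 in WT and 9.98, 10.8, 9.79 and 7.09 in ORP4L KI, and its coefficient of variation over ORP4L KI was 17% in place of 44.7%. Osbpl5 stood at 8.41, 7.87 and 7.31 in WT and 5.83, 6.55, 8.51 and 4.02 in ORP4L KI, with 29.8% in place of 48.2%. Osbp2 stood at 7.89, 10.1, 3.13 and 8.56 in ORP4L KI, with 40.5% in place of 67.1%, and its range narrowed from 4.57-fold to 3.22-fold. In the other 7 members the spread widened on this scale, as in Osbp from 10.4% to 58.3% and in Osbpl9 from 8.83% to 56.9%. None of these 7 was lower in ORP4L KI replicate 1 in CPM by as much as the T-cell markers were. With the libraries scaled to the T-cell markers, Osbp2 had an edgeR adjusted p of 0.00618. It was the only 1 of 13462 genes with an adjusted p under 0.05. With so few genes called, this fit says little about the other members.

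**Figure D3:**
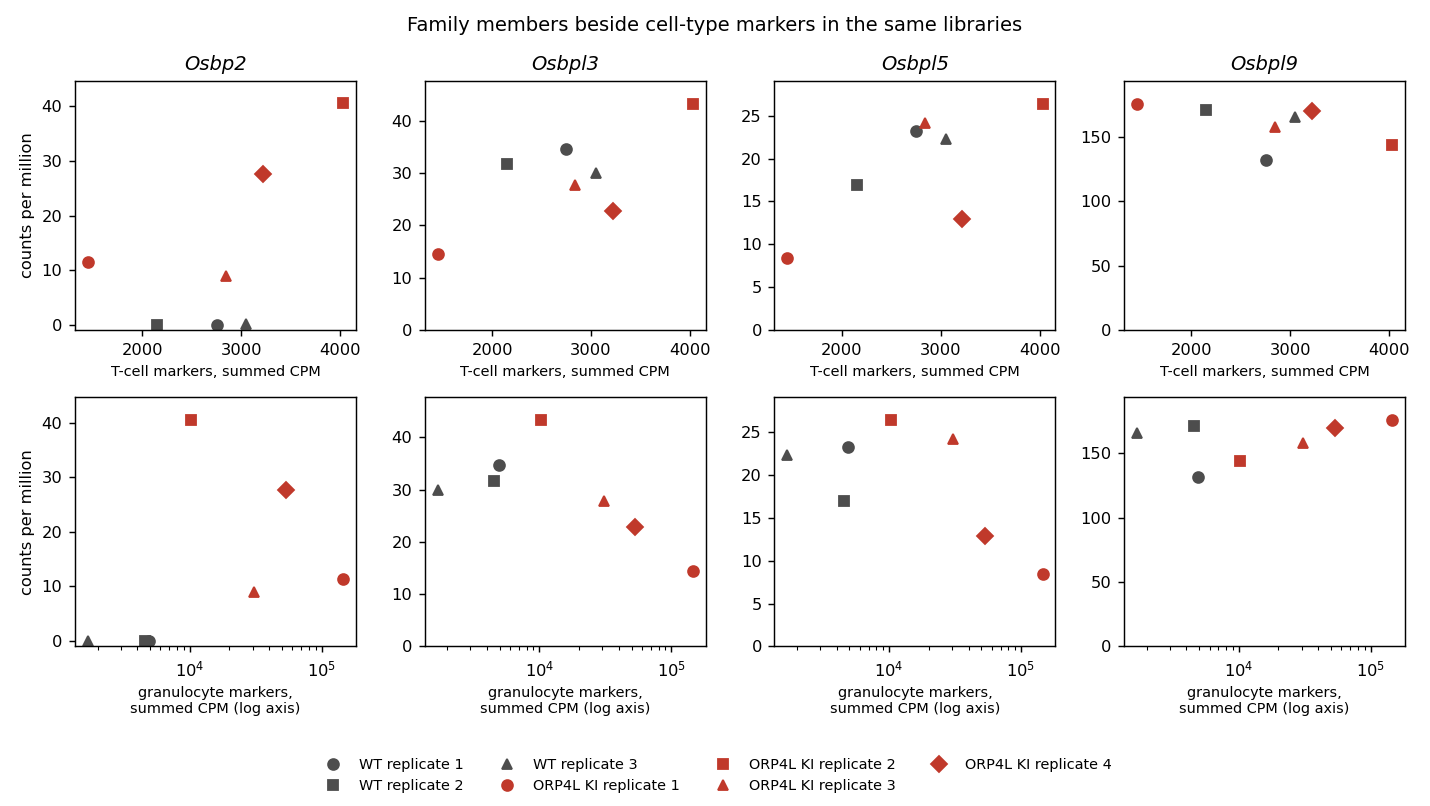
Level of Osbp2, Osbpl3, Osbpl5 and Osbpl9 (vertical axis, CPM) against the summed level of 10 T-cell markers (upper row) and of 14 granulocyte markers (lower row, log axis) in the same libraries, WT in grey and ORP4L KI in red. Among the 4 red points Osbpl3 and Osbpl5 fall step by step as the granulocyte sum goes from 10300 to 146000, while Osbpl9 goes from 144 to 176. Among the grey points Osbpl3 goes the other way, from 30 to 34.7 as that sum goes from 1690 to 4900.

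Levels between members were compared only per length, in RPKM. In WT, Osbpl9 was highest at 48.4 ± 6.05 (SD, n = 3), followed by Osbp at 10.4 ± 2.47, Osbpl2 at 9.94 ± 1.53, Osbpl8 at 9.88 ± 4.09 and Osbpl7 at 8.72 ± 0.871. Next came Osbpl5 at 5.84 ± 1.21, Osbpl11 at 5.73 ± 1.72, Osbpl3 at 5.02 ± 0.456 and Osbpl1a at 1.12 ± 0.272. Osbpl9 stood clear of all others, whereas Osbp, Osbpl2, Osbpl8 and Osbpl7 overlapped with one another, as did Osbpl5, Osbpl11 and Osbpl3. In ORP4L KI, Osbpl9 was again highest at 45.2 ± 1.42 (SD, n = 4) and Osbpl1a lowest at 1.32 ± 0.292, and Osbp2, at 5.37 ± 4.07, lay among the middle members with a range of 2.16 to 10.8. Osbp2 made up 2.59, 8.9, 2.14 and 6.22% of the summed RPKM of the family in ORP4L KI replicates 1 to 4, and Osbpl9 made up 37.8 to 48.0%. The Osbp2 values count only reads that aligned to the mouse gene and divide by the mouse mRNA length. They therefore do not give the level of the human ORP4L transcript, whose place in the family is not known.

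**Figure D4:**
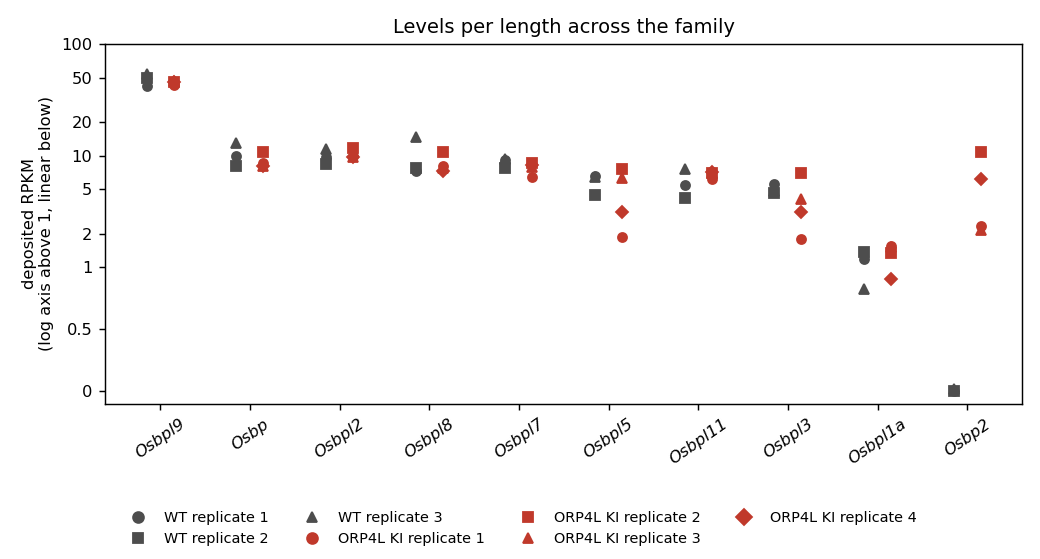
Deposited RPKM of the 10 members in each library (vertical axis, logarithmic above 1 and linear below), ordered by their WT mean, WT in grey and ORP4L KI in red. Osbpl9 lies between 41.8 and 53.6 in every library, and Osbp2 moves from the bottom of the family in WT to between 2.16 and 10.8 in ORP4L KI. The Osbp2 values count reads aligned to the mouse gene and are not levels of the human ORP4L transcript.

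Osbpl6 and Osbpl10 were too low for the filter. Osbpl6, close to Osbpl3 and Osbpl7, had 5, 3 and 12 counts in WT and 4, 4, 3 and 6 in ORP4L KI. Osbpl10, whose product can pair with ORP9, had 7 counts in each of the 3 WT libraries and 1, 0, 2 and 0 in ORP4L KI. The groups did not overlap in Osbpl10, with 21 reads in WT and 3 in ORP4L KI, a depth-scaled ratio of 0.0969 (95% exact interval 0.0185 to 0.325, counting error only). In the edgeR fit without a filter Osbpl10 met the looser rule as a lower gene, as did 4.17% of the 18501 genes in that fit, and its adjusted p was 0.163.

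The genes with which these proteins work were taken from lists. Of 18 genes of endoplasmic reticulum to Golgi contacts and phosphatidylinositol 4-phosphate turnover, edgeR and DESeq2 each gave 0 with an adjusted p under 0.05 and 1 with an unadjusted p under 0.05, where 13.7% of all genes passed in edgeR and 15.7% in DESeq2. That gene was Pi4k2b, a phosphatidylinositol 4-kinase, with 8.07, 8.11 and 8.43 CPM in WT and 24.2, 8.76, 11.8 and 12 CPM in ORP4L KI (log2 fold change 0.79, SE 0.35, edgeR adjusted p = 0.355). Its highest library was ORP4L KI replicate 1, and its unadjusted p stayed under 0.05 without ORP4L KI replicate 2 but not without any other library. Vapa, the endoplasmic reticulum anchor that holds OSBP and ORP4 at contacts, had 95.3, 111 and 91.7 CPM in WT and 152, 118, 121 and 116 CPM in ORP4L KI, with no overlap (log2 fold change 0.35, SE 0.19, edgeR adjusted p = 0.465). These 2 genes were 11.1% of the list, against 13.8% of all genes without overlap, and the median log2 fold change of the list was 0.03.

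Among 8 genes listed as partners of ORP4L, edgeR and DESeq2 each gave 0 genes, adjusted or at an unadjusted p under 0.05. The groups did not overlap in 2 of the 8 (25%, against 13.8% of all genes), Vapa, which is on both lists, and Pik3cd. In ORP4L KI T-cells the study found the movement of OSBP to the plasma membrane unchanged by knockdown of VAPA. Pik3cd, for the catalytic delta subunit of phosphatidylinositol 3-kinase, had 433, 408 and 551 CPM in WT and 234, 396, 382 and 379 CPM in ORP4L KI (log2 fold change -0.42, SE 0.24, edgeR adjusted p = 0.516). Cd3e, a chain of the T-cell receptor complex, had 176, 115 and 157 CPM in WT and 117, 245, 150 and 174 CPM in ORP4L KI.

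Genes that respond to or handle sterol had lower estimates in ORP4L KI more often than higher ones, in 18 of the 24 tested, with a median log2 fold change of -0.32. With edgeR 0 of 24 had an adjusted p under 0.05, 6 (13.7% of all genes did) had an unadjusted p under 0.05, all lower, and 2 met the looser rule (4.68% of all genes did), both lower. DESeq2, with 5.82% of all genes called, gave 3 lower genes with an adjusted p under 0.05, namely Cyp27a1 (0.00013), Nr1h3 (0.0336) and Idi1 (0.0439). With the libraries scaled to the T-cell markers, 1 of 24 had an unadjusted edgeR p under 0.05, and with 1 library left out 4 to 8 lower genes had. The share of all genes at that p is not given for these fits, so these counts cannot be set against it. By the looser rule, 1 lower gene was called with T-cell scaling, where 320 of all genes tested were. With 1 library left out, 1 to 2 lower genes were called by that rule, where 328 to 805 of all genes were. The groups did not overlap in 9 of 24, or 37.5%, all lower, against 13.8% of all genes tested. Among these were Cyp27a1, Nr1h3, Sqle, Idi1, Srebf2, Npc1, Scap and Npc2.

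Cyp27a1, which makes 27-hydroxycholesterol, had 53.8, 77.3 and 37.4 CPM in WT and 11.3, 10.6, 24.3 and 16.7 CPM in ORP4L KI (log2 fold change -1.84, SE 0.34, edgeR adjusted p = 0.0643). Over 13 edgeR alternatives its adjusted p ran from 0.0322 without a filter to 0.298 without WT replicate 2, and was under 0.05 in 3, among them the fit without ORP4L KI replicate 2 (0.0348). Nr1h3, the oxysterol receptor LXR alpha, had 9.01, 9.68 and 7.3 CPM in WT and 6.03, 4.27, 3.04 and 3.98 CPM in ORP4L KI (log2 fold change -1.0, SE 0.29, edgeR adjusted p = 0.15). Nr1h3 met the looser rule without WT replicate 3 or ORP4L KI replicate 1, but not without any other library. Both are strongly expressed in macrophages. Of 10 monocyte and macrophage markers, 8 had lower estimates. Of these, 5 had an unadjusted edgeR p under 0.05 (13.7% of all genes did) and 2 met the looser rule (4.68% of all genes did). The groups did not overlap in 40% of the 10 (13.8% of all genes), and the median log2 fold change was -0.84. The summed level of these markers was 2760 to 5020 CPM in WT and 1810 to 6790 CPM in ORP4L KI. Their part in these values was not tested.

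On the cholesterol synthesis side, Idi1, an isoprenoid isomerase, had 29.9, 33.3 and 28.7 CPM in WT and 20.8, 17.7, 23 and 17.2 CPM in ORP4L KI (log2 fold change -0.64, SE 0.19, edgeR adjusted p = 0.159). Sqle, squalene epoxidase, had 8.32, 12.3 and 11.4 CPM in WT and 4.99, 7.89, 6.83 and 6.59 CPM in ORP4L KI (log2 fold change -0.70, SE 0.26, edgeR adjusted p = 0.257). Without WT replicate 2 or WT replicate 3 the unadjusted edgeR p of Idi1 stayed under 0.05 and that of Sqle did not. In Hmgcs1, Fdft1, Cyp51 and Lss, also on this side, the groups overlapped (log2 fold change -0.47, -0.02, -0.21 and -0.32).

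**Figure D5:**
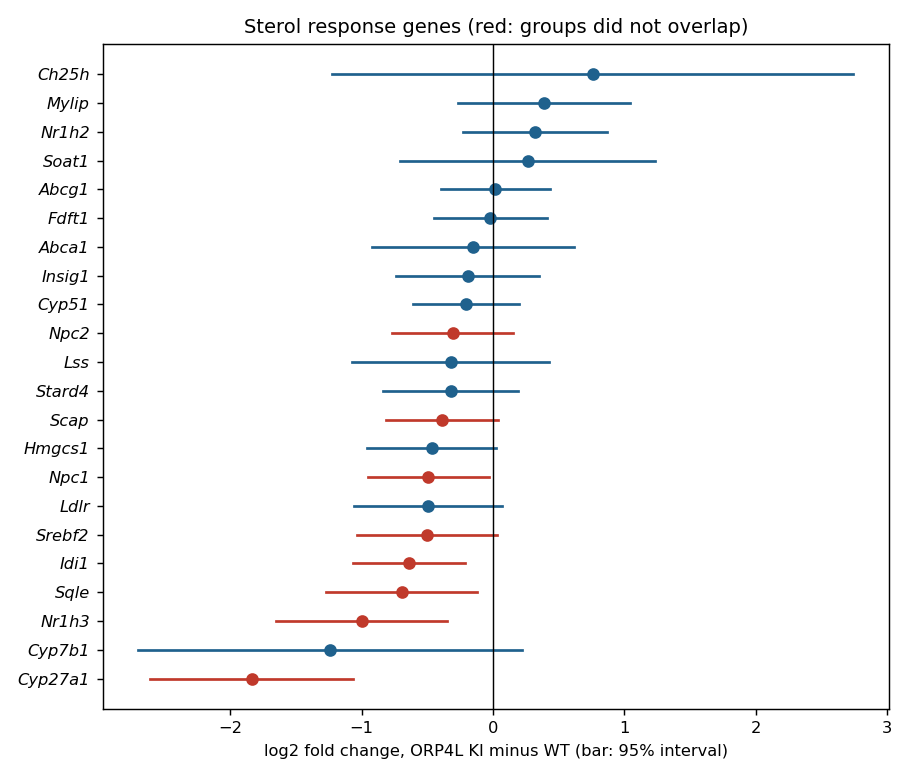
Log2 fold change, ORP4L KI minus WT (horizontal axis), of 22 of the sterol response genes tested, with bars for the 95% interval from edgeR. The 8 of these whose groups did not overlap, in red, all lie below 0, from -1.84 for Cyp27a1 to -0.31 for Npc2.

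At the site of insertion, Gt(ROSA)26Sor (chr6:113067428-113077244), the noncoding transcript of the Rosa26 locus, had 10.4, 9.94 and 11.7 CPM in WT and 29.8, 14.1, 8.33 and 22.8 CPM in ORP4L KI. The ORP4L KI libraries reached from below to above WT (log2 fold change 0.81, SE 0.39, edgeR adjusted p = 0.412), and their order was not that of Osbp2. Lck, whose promoter drove Cre, had 471, 357 and 428 CPM in WT and 207, 569, 413 and 474 CPM in ORP4L KI, highest in the library with the most Osbp2 and lowest in replicate 1 (log2 fold change -0.01, SE 0.32, edgeR adjusted p = 0.995). Lck is also among the T-cell markers, whose sum was highest and lowest in the same ORP4L KI libraries, so its order is no separate observation. The neighbours Thumpd3 and Setd5 were not called either. With edgeR 0 of these 4 genes had an unadjusted p under 0.05 (13.7% of all genes did). With DESeq2 1 had, Gt(ROSA)26Sor (15.7% of all genes did). Without ORP4L KI replicate 3 Gt(ROSA)26Sor met the looser rule, with a log2 fold change of 1.06 (edgeR adjusted p = 0.171). In that fit 666 of 13275 genes met it. Without WT replicate 3 Setd5 had an unadjusted edgeR p under 0.05, and the share of all genes at that p is not given for that fit.

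The genes most like Osbp2 over the 7 libraries, by Pearson correlation of log2 CPM, were Odf2 (r = 0.978), Mlf1 (0.977), Eed (0.974), Ythdf1 (0.971) and Rtkn (0.968). This measure mostly reflects the step between the groups, and the libraries also share the marker differences given above. The closest other family member was Osbpl11 (r = 0.729, rank 710 of 13462), followed by Osbpl2 (r = 0.689, rank 940). Rtkn had 0.497, 0.252 and 0.281 CPM in WT and 2.43, 3.51, 2.35 and 2.12 CPM in ORP4L KI. Mlf1, a myeloid leukaemia factor gene, had 1.68, 1.19 and 1.47 CPM in WT and 3.77, 7.23, 5.28 and 6.16 CPM in ORP4L KI. In these 2 genes, as in Osbp2, replicate 2 was the highest of the ORP4L KI libraries.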

How the data were processed

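The authors sequenced mRNA libraries of primary T-cells and mapped reads with FANSe3 to mouse mRNA (build mm10 per the labels), merging splice variants. The deposited files list, per gene and library, a read count and an RPKM value that the authors computed from the longest transcript. Aligner settings are not given in the sources used here. The counts listed were 99.81 to 99.91% of the total that the RPKM values imply. No 2 libraries were identical.

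Counts were tested with edgeR 4.0.16 (R 4.3.3, limma 3.58.1): filterByExpr with a minimum count of 10, trimmed mean of M-values, quasi-likelihood F-test of ORP4L KI against WT without covariates, Benjamini-Hochberg adjustment over 13462 genes. The study's RNA sequencing methods name no test, and its general test for all comparisons was not used, since these values are counts. DESeq2 1.42.0, other scalings and filters, a replicate block and leaving out each library were alternatives. The fit was tested on simulated data. Counting intervals and floors cover counting error only. Members and lists were chosen with earlier results of these data known. Genes named are the members, the lists, on-off genes like Osbp2 and the 5 most correlated with it. Beyond these, list genes past a threshold or without overlap come first. Cd3e, Lck, Hmgcs1, Fdft1, Cyp51 and Lss were named after their values were seen. The values of 2 sterol response genes are not reported here, though list counts include them. Positions are from RefSeq (GRCm38.p6), coding sequences from GENCODE vM21, compared with Biopython 1.88. Of the 19 contact and turnover names, 18 were found, since 2 name the same gene.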

Additional observations from a re-analysis of the deposited data

How the results depend on the processing

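For the 9 members other than Osbp2, no alternative gave an adjusted p under 0.05, and 109 of 117 planned estimates kept their sign. Signs turned for Osbp, Osbpl5, Osbpl7, Osbpl8 and Osbpl9. With total counts alone, which moved the median of all genes by -0.14, Osbpl9 went to -0.10. With the T-cell markers as the scale, added after seeing the data, Osbp went to 0.048, Osbpl7 to 0.023 and Osbpl8 to 0.043. Leaving out 1 library gave -0.18 to 0.10 for Osbp, -0.076 to 0.003 for Osbpl7, -0.26 to 0.28 for Osbpl8, -0.055 to 0.121 for Osbpl9 and -0.471 to 0.021 for Osbpl5.

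Leaving out 1 library gave a fitted log2 fold change of 9.07 to 11.53 for Osbp2, and 0 to 1 members with an adjusted p under 0.05, the libraries that end the call being named above. At an unadjusted p under 0.01 with a log2 fold change above 1 in size, Osbp2 alone was called in each of these fits. Requiring 10 counts in every library removed Osbp2, which leaves no value for it and 0 members called by either rule. With the replicate block, 1 member, Osbp2, was called by either rule, and Osbpl8 went to 0.036. Libraries with the same number had r of 0.15, -0.535 and -0.001 (mean -0.13, against 0.04 for other pairs). With so few pairs, this cannot show whether the numbers pair the libraries. The cause of these changes was not tested. Depth limits Osbpl1a, Osbpl6 and Osbpl10.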
